A study of Mus musculus with 6 samples.

Results

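Genes of glycolysis and of the response to low oxygen were compared among 3 mouse embryonic stem cell lines. The members were 40 genes, chosen by name with earlier results of these data known. They were 24 that carry glucose through glycolysis or set the fate of its end product, and 16 of the hypoxia response. A member was measured when the platform's probe table gave a probe set with its symbol alone, and the brightest such probe set stood for the gene. This gave values for 37 of the 40 members among 19938 genes in all, 36 by symbol and 1, Ero1l, under its current symbol Ero1a. Gapdh was represented by 25 probe sets that also named other genes, and Gpi1 and Eno1 were not listed in that table, so these 3 were not analysed here. No filter on low values was used, and 35 of the 37 measured members lay above the median level of all genes.

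The lines, ♂M-1, ♂M-3 and ZM-1, are labelled as embryonic stem cells derived after chromosome transfer, and the series title places them in a study of how the parental pronuclei of the zygote reprogram. Each line was grown in 2 biological repeats, which gave 6 expression arrays. Every culture was kept on gelatin with LIF, with PD0325901 to block MEK and CHIR99021 to block GSK3β, so all lines share these agents. The meaning of the ♂M and ZM prefixes, the strain, the genotype, the donor cells, the oxygen tension and the glucose supply are unstated in the labels used here. With 1 ZM line, a difference between line types cannot be told apart from a difference between lines, and the repeats of a line may share their derivation.

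Glycolysis splits glucose into pyruvate, which is reduced to lactate and exported or oxidised in mitochondria. Pluripotent cells are known for a high glycolytic flux. Hypoxia-inducible factors (HIF) pair an oxygen-regulated alpha subunit with ARNT. Prolyl hydroxylases of the EGLN family mark the alpha subunit for destruction when oxygen is present, and in its absence HIF binds short promoter motifs and induces glycolytic enzymes, angiogenic signals and mitophagy receptors. Most of this control of HIF acts on the protein, which arrays of RNA do not measure.

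Array medians lay between 67.2 and 71.3 intensity units, and the lower quartile between 23.8 and 25.1. The pluripotency factors Pou5f1 and Nanog were high in all lines, Pou5f1 at 3711 ± 39.1 (♂M-1), 3614 ± 75.0 (♂M-3) and 3875 ± 4.67 (ZM-1) (SD, n = 2) and Nanog at 3619 ± 215 (♂M-1), 4086 ± 5.49 (♂M-3) and 3361 ± 47.3 (ZM-1). Nanog was called higher in ♂M-3 than in ZM-1 (adjusted p = 0.0384), a call lost when any 1 of the 4 ♂M-3 or ZM-1 arrays was left out (adjusted p between 0.0806 and 0.161). Of 9 pluripotency markers, 4 (44.4%) were called higher in ♂M-3 than in ZM-1, beside 8.66% of all genes. All 9 lay above the median level, where 22.3% of genes were called in either direction. Zfp42, a marker of naive pluripotency, measured 283 and 299 (♂M-1), 673 and 668 (♂M-3), and 263 and 280.0 (ZM-1), and was 2.47-fold higher in ♂M-3 than in ZM-1 (adjusted p = 2.37e-05), which held whichever array was left out. The naive-state factor Tfcp2l1 measured 1480.1 ± 108 (♂M-1), 2169 ± 2.76 (♂M-3) and 1721 ± 16.8 (ZM-1) and was called higher in ♂M-3 than in ZM-1 (adjusted p = 0.0226), lost when any 1 of the 4 ♂M-3 or ZM-1 arrays was left out (adjusted p between 0.0630 and 0.111). It was called lower in ♂M-1 than in ♂M-3 (adjusted p = 0.00456), lost when ♂M-1 replicate 2 was left out (adjusted p = 0.0527). Of 6 trophectoderm markers, 1 (16.7%) was called lower than in ZM-1 in each ♂M line, and no primitive endoderm marker was called against ZM-1. For these and the next marker counts, 7.2% of all genes were called lower than in ZM-1 in ♂M-3 and 2.53% in ♂M-1. Fibroblast markers were called lower in ♂M-3 than in ZM-1 in 10 of 12 genes, with summed intensities of 2640.3 and 2564 (♂M-3) against 4473 and 4322 (ZM-1). In ♂M-1 the sums were 4156 and 3856, and 3 of the 12 (25%) were called lower than in ZM-1. Against ♂M-3, 9 of the 12 (75%) were called higher in ♂M-1, beside 3.22% of all genes, with a median log2 difference of 0.63. Zfp42 was lower in ♂M-1 than in ♂M-3 (log2 difference −1.20, adjusted p = 8.53e-05). The primitive endoderm marker Dab2, 1 of 7, was higher there (0.53, adjusted p = 0.00759). The Dab2 call was lost without ♂M-1 replicate 2 or without ♂M-3 replicate 1. Blood and immune markers were called lower than in ZM-1 in 5 of 6 genes in ♂M-3 and 2 of 6 in ♂M-1, with sums of 564 and 584 (♂M-1), 559 and 564 (♂M-3), and 713 and 671 (ZM-1). By their mean level, 10 of the 12 fibroblast markers and 1 of the 6 blood markers lay above the median gene. In bulk RNA, fewer cells of a type and less RNA per cell cannot be told apart, and the part of these markers in the differences below was not tested.

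Against ZM-1, ♂M-3 had 11 of the 37 members called, 7 higher and 4 lower. Bhlhe40 and Ldhb were the members with the largest positive differences and Epas1 the one with the largest negative difference. A gene counts as called where limma's moderated test gave an adjusted p under 0.05 over all 19938 genes. By that rule 15.9% of all genes were called between ♂M-3 and ZM-1, 8.66% higher and 7.2% lower, and 22.3% of the genes above the median level. The members' 29.7% was above both shares. When only the genes above the median level were fitted, the shares were closer. In that fit 14 of 35 members (40%) and 33.9% of the genes were called. The members were chosen with earlier results of these data known, so any excess may not be independent of that choice. Without ♂M-3 replicate 1 the count was 5 (13.5%), beside 6.84% of all genes. After median centring of the arrays, 9 members were higher and 3 lower.

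Against ZM-1, ♂M-1 had fewer members called. Ldhb and Bhlhe40 were higher and Pfkm was lower, 3 of 37 or 8.11%, where 4.42% of all genes and 5.69% of those above the median level were called. The background in each direction was 1.9% higher and 2.53% lower. After median centring 4 members were called, all higher, and 1 call (2.7%) was left without ♂M-1 replicate 2 or without ZM-1 replicate 1, beside 1.18% and 3.17% of all genes. Against ♂M-3, ♂M-1 had 8 members called, 6 lower and 2 higher, which is 21.6% of the members and stands beside 6.54% of all genes (3.22% higher and 3.32% lower) and 9.68% of those above the median. The 8 calls became 2 to 5 (5.41% to 13.5%) when any 1 of the ♂M-1 or ♂M-3 arrays was left out, beside 1.79% to 3.82% of all genes. The comparisons share arrays, so their counts are not independent of each other.

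Across the comparisons, 12 members were called between at least 1 pair of lines and 25 between none. The 12 are 32.4%, beside 18.5% of all genes and 26.1% of those above the median level. Bhlhe40 and Ldhb were called in all 3 pairs, as were 0.557% of all genes and 0.863% of those above the median level. The arrays of a pair of lines did not overlap in 28 of 37 members between ♂M-3 and ZM-1, where 57.5% of all genes did not overlap. That count was 21 of 37 in each of the other pairs, beside 48.9% of all genes where ♂M-1 was set against ZM-1 and 50.5% where it was set against ♂M-3. These shares were not taken for genes above the median level, where 35 of the 37 members lay, so they are not matched in level. By line means, ♂M-1 was the highest line for 8 of the 37 members, ♂M-3 for 20 (54.1%) and ZM-1 for 9. Of all genes 38.5% were highest in ♂M-3, and of those above the median level 48.5%. The median log2 difference of the members was 0.04 for ♂M-1 minus ZM-1, 0.09 for ♂M-3 minus ZM-1 and −0.06 for ♂M-1 minus ♂M-3, against −0.01, 0.00 and −0.02 for all genes and 0.03, 0.06 and −0.03 for those above the median level. By group, the medians were 0.05, 0.10 and −0.09 for the glycolysis members and 0.02, 0.05 and −0.06 for the hypoxia members. The first of the medians over all members was negative after quantile normalization, without ♂M-1 replicate 1 (−0.04) and without ZM-1 replicate 2. The second was 0.03 after quantile normalization and 0.14 after median centring, where the median of all genes was 0.01 and 0.06. The third was −0.15 without ♂M-1 replicate 1, −0.02 without ♂M-1 replicate 2 and −0.12 without ♂M-3 replicate 2. With all 35556 probe sets of the array in a single fit, 6 members stayed called between ♂M-3 and ZM-1 (Bhlhe40, Epas1, Hk2, Ldhb, Pfkfb3 and Pfkm), 2 between ♂M-1 and ♂M-3 (Epas1 and Ldhb) and 0 between ♂M-1 and ZM-1 by limma, where 10 members had an unadjusted p under 0.05. None of the 22 calls changed direction under the 16 alternative settings tried.

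**Figure D1:**
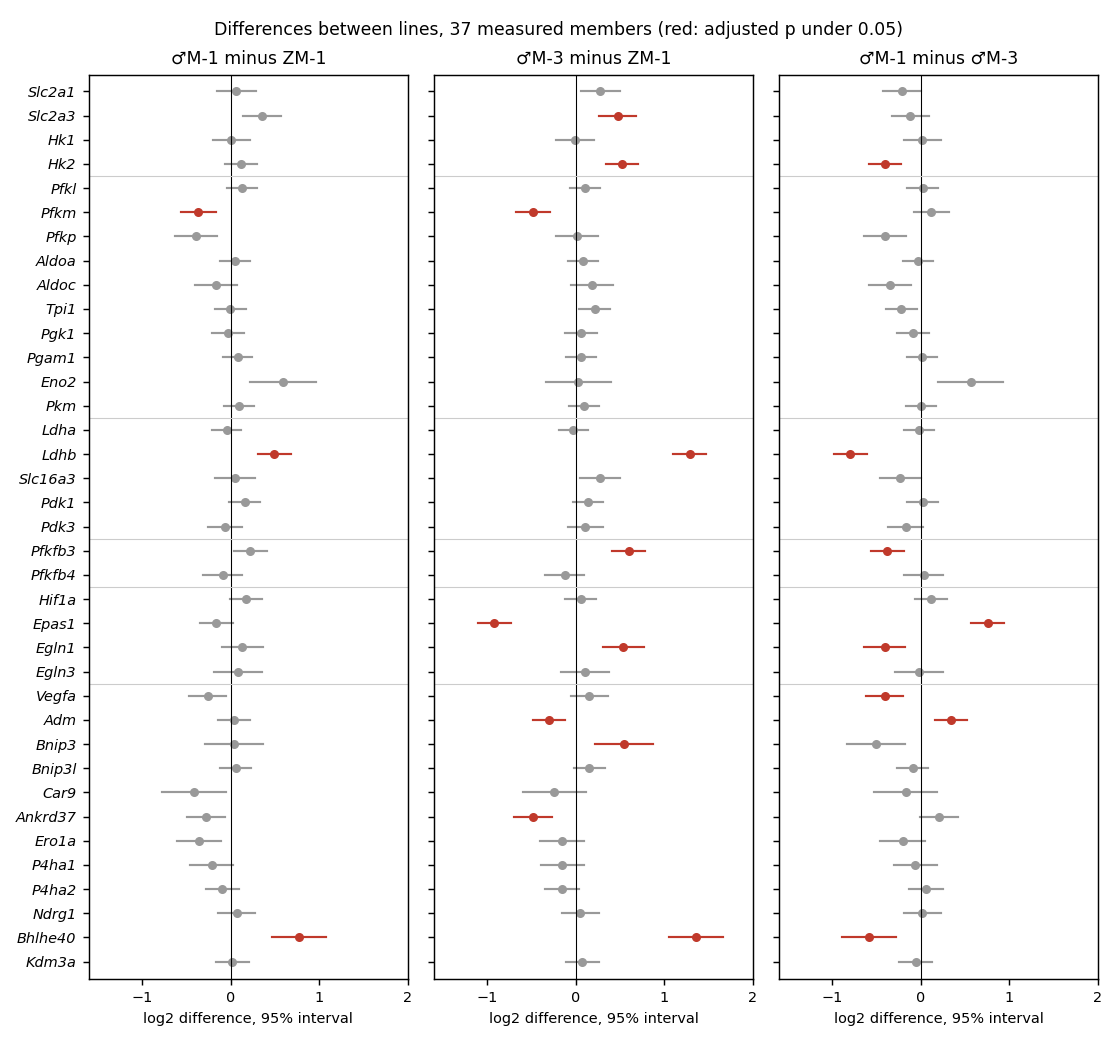
Log2 difference of each of the 37 measured members between lines (x axis), with its 95% interval from limma, for ♂M-1 minus ZM-1, ♂M-3 minus ZM-1 and ♂M-1 minus ♂M-3. Grey rules separate the role groups and red marks an adjusted p under 0.05. The middle panel holds 11 red members, among them Bhlhe40 at 1.36, Ldhb at 1.29 and Epas1 at −0.92, while the left panel holds 3.

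HIF binds a core of A or G followed by CGTG, so the 250 bases before the first listed start of each member were searched for ACGTG and GCGTG on both strands, where CACGTG holds a match on each strand and counts as 2. The sequences are RefSeq promoters of GRCm38.p6, which had entries for 32 of the 37 measured members and 15614 of the tested genes. At least 1 match was found in 26 of the 32 members (81.2%) and in 46.3% of all tested genes, and at least 2 in 53.1% of the members and 21.6% of all genes. Both motifs contain a CpG pair. Members had a median of 16.5 CpG pairs in the window and all tested genes 11. Of the called members with an entry, 8 of 9 held a match, against 18 of 23 members called between no pair. A match is a string of letters in this window, not a measured site. The 6 called members with a match and the largest differences are shown 5′ to 3′ with the matches in capitals, so that their number and place can be compared.
Ldhb: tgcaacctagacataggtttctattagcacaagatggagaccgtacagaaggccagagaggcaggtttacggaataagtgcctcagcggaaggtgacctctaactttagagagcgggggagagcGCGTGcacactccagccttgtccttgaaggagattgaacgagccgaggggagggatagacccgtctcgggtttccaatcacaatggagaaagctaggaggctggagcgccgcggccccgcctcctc
Pfkfb3: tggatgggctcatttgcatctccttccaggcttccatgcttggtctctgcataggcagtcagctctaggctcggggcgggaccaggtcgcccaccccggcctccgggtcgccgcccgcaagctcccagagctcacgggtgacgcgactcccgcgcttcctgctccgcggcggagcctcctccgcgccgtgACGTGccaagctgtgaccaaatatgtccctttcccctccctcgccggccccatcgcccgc
Bnip3: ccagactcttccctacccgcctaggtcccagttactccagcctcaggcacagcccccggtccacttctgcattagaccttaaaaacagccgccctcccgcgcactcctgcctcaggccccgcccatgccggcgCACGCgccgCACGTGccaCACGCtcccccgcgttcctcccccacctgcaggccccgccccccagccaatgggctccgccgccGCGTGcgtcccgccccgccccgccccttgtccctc
Egln1: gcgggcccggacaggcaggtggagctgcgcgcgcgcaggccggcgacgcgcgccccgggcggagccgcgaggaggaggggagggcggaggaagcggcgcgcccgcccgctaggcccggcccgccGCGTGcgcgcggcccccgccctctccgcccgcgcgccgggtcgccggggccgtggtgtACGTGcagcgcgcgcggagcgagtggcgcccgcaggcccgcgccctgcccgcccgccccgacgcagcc
Hk2: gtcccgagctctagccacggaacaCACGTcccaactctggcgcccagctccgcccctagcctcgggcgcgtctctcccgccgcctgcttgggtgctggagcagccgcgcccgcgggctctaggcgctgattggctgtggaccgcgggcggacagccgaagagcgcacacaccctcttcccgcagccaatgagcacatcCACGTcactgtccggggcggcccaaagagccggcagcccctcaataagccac
Pfkm: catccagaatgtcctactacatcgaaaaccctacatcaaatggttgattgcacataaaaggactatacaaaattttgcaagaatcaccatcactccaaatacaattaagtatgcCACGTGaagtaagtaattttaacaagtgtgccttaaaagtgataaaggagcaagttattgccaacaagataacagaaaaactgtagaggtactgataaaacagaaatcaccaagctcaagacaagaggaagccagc
The Ldhb window lies at chr6:142507958-142508207, minus strand, and that of Pfkfb3 at chr2:11553930-11554179, minus strand. Bnip3 was read at chr7:138909507-138909756, minus strand, and Egln1 at chr8:124949255-124949504, minus strand. The Hk2 window is chr6:82774455-82774704, minus strand, and the Pfkm window chr15:98092339-98092588, plus strand. Bnip3 held 5 matches, Egln1, Hk2 and Pfkm held 2 each, and Ldhb and Pfkfb3 held 1 each. The pair in Pfkm comes from 1 CACGTG, and 4 starts are listed for that gene. Bhlhe40, Epas1 and Slc2a3 were called members without an entry.

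At the entry of glucose, the transporter Slc2a3 and the kinase Hk2 were higher in ♂M-3 than in ZM-1, and Slc2a1 and Hk1 were not called. Slc2a3, a high-affinity glucose transporter, measured 5903 and 5018 (♂M-1), 6124 and 5715 (♂M-3), and 4288 and 4242 (ZM-1). The ♂M-3 arrays and the ZM-1 arrays did not overlap, and both ♂M-1 arrays also lay above both ZM-1 arrays. The ♂M-3 difference passed the test (log2 difference 0.47, SE 0.09, adjusted p = 0.0104) and was lost when ♂M-3 replicate 1 was left out (adjusted p = 0.0757), while that of ♂M-1 did not pass (log2 difference 0.35, SE 0.09, adjusted p = 0.0724). The ♂M-1 difference was under the threshold in 4 alternatives, among them median centring (0.0379). Hk2, a hexokinase isoform induced in growing cells, measured 1001 and 929.7 (♂M-1), 1328 and 1225 (♂M-3), and 883 and 893 (ZM-1). Both ♂M-3 arrays were above the other 4. Hk2 was 1.44-fold higher in ♂M-3 than in ZM-1 (log2 difference 0.52, SE 0.08, adjusted p = 0.00327), a call that held whichever array was left out. Relative to ♂M-3, ♂M-1 had 1.32-fold lower Hk2 (adjusted p = 0.0202), a call lost when any 1 of the 4 ♂M-1 or ♂M-3 arrays was left out (adjusted p between 0.0524 and 0.162).

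Slc2a1, the widely expressed glucose transporter, measured 5218 ± 548 (♂M-1), 6036 ± 175 (♂M-3) and 4986 ± 401 (ZM-1) (SD, n = 2). Its ♂M-3 arrays were above both ZM-1 arrays, with a log2 difference of 0.28 and an adjusted p of 0.0861, which was under the threshold after median centring (0.0433). Hk1, the housekeeping hexokinase, measured 4632 ± 294 (♂M-1), 4586 ± 438 (♂M-3) and 4606 ± 195 (ZM-1), with overlapping arrays in every pair of lines. A second, dimmer Hk1 probe set measured 493 and 415 (♂M-1), 620.0 and 677 (♂M-3), and 557 and 529.95 (ZM-1), and was not called between any pair over all probe sets.

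Of the 10 measured enzymes of the chain after hexokinase, only the muscle phosphofructokinase Pfkm was called, lower in both ♂M lines than in ZM-1. Phosphofructokinase commits sugar to glycolysis and is built from muscle, liver and platelet subunits. Pfkm measured 437 and 432 (♂M-1), 388 and 412 (♂M-3), and 598 and 526 (ZM-1). Every ♂M array lay below both ZM-1 arrays. Pfkm was lower in ♂M-3 than in ZM-1 (log2 difference −0.49, SE 0.09, adjusted p = 0.00625), a call lost when ♂M-3 replicate 1 was left out (adjusted p = 0.0538). Relative to ZM-1, ♂M-1 had 1.29-fold lower Pfkm (log2 difference −0.37, SE 0.09, adjusted p = 0.0487). The ♂M-1 call was lost under 9 of the 16 alternatives, among them after median centring (0.0798), when only the arrays of these lines were fitted (0.0785), and without any array except ZM-1 replicate 2 (adjusted p between 0.0785 and 0.210). The liver subunit Pfkl measured 1555 ± 83.7 (♂M-1), 1530.0 ± 18.9 (♂M-3) and 1423 ± 34.2 (ZM-1) (SD, n = 2) and was not called. The platelet subunit Pfkp measured 1702 and 1369 (♂M-1), 1992 and 2047 (♂M-3), and 2069 and 1933 (ZM-1). Both ♂M-1 arrays were the lowest, with log2 differences of −0.39 against ZM-1 (adjusted p = 0.0783) and −0.40 against ♂M-3 (adjusted p = 0.0566). The second was under the threshold after median centring (0.0499).

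Downstream, the aldolase Aldoa measured 6523 ± 259 (♂M-1), 6684 ± 1.58 (♂M-3) and 6301 ± 115 (ZM-1) (SD, n = 2), and Pkm, the pyruvate kinase that forms pyruvate, 3795 ± 64.4 (♂M-1), 3798 ± 66.1 (♂M-3) and 3561 ± 157 (ZM-1). Their log2 differences from ZM-1 were 0.09 and 0.09 in ♂M-3 and 0.05 and 0.09 in ♂M-1. A second Pkm probe set differed from ZM-1 by −0.01 in ♂M-3 and 0.002 in ♂M-1. The phosphoglycerate kinase Pgk1 and the mutase Pgam1 differed from ZM-1 by 0.06 and 0.06 in ♂M-3, with 95% intervals of −0.12 to 0.24 and −0.11 to 0.23. None of these 4 enzymes was called between any pair. Triosephosphate isomerase, Tpi1, measured 3697 and 3629 (♂M-1), 4136 and 4411 (♂M-3), and 3791 and 3579 (ZM-1). Both ♂M-3 arrays were the highest, and the log2 difference from ZM-1 of 0.21 had an adjusted p of 0.0975, which was 0.0460 with a pseudocount of 16. The brain-type aldolase Aldoc measured 581 ± 72.2 (♂M-1), 738 ± 55.6 (♂M-3) and 649.6 ± 38.1 (ZM-1), with a ♂M-1 minus ♂M-3 difference of −0.35 (adjusted p = 0.0920). Several of these enzymes have processed pseudogene copies in the mouse genome, and hybridisation to such copies was not separated here.

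Eno2, the neuron-type enolase, measured 271 and 183 (♂M-1), 148 and 153 (♂M-3), and 162 and 134 (ZM-1). One ♂M-1 array stood well above the other, and both stood above the arrays of the other lines. Its log2 difference of 0.59 from ZM-1 (SE 0.16) had an adjusted p of 0.0818, which was 0.0264 without ♂M-1 replicate 2 and 0.304 without ♂M-1 replicate 1. After median centring it was 0.0491.

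The fate of pyruvate brought the clearest difference of the glycolytic group, in Ldhb. Lactate dehydrogenase is a tetramer of LDHA and LDHB subunits, and LDHB-rich enzyme is known to favour the oxidation of lactate to pyruvate. Ldhb measured 1123 and 1211 (♂M-1), 2088 and 1974 (♂M-3), and 798 and 863 (ZM-1). The lines did not overlap, with ♂M-3 highest, ♂M-1 between and ZM-1 lowest. Ldhb was 2.44-fold higher in ♂M-3 than in ZM-1 (log2 difference 1.29, SE 0.08, adjusted p = 3.34e-05) and 1.41-fold higher in ♂M-1, again relative to ZM-1 (log2 difference 0.49, SE 0.08, adjusted p = 0.0131). It was 1.74-fold lower in ♂M-1 than in ♂M-3 (log2 difference −0.80, SE 0.08, adjusted p = 8.92e-04). The differences involving ♂M-3 held under all 16 alternatives, and the difference between ♂M-1 and ZM-1 was lost when ♂M-1 replicate 2 was left out (adjusted p = 0.116), or when ZM-1 replicate 1 was left out (adjusted p = 0.0533). A second Ldhb probe set ran in the same order, at 782 and 775 (♂M-1), 1379 and 1412 (♂M-3), and 584 and 592 (ZM-1). Tested over all probe sets of the array, its ♂M-3 minus ZM-1 difference was 1.25 (adjusted p = 0.00226) and its ♂M-1 minus ZM-1 difference 0.40 (adjusted p = 0.0737).

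Ldha, the subunit that favours lactate formation, was not called between any pair of lines. It measured 7364 and 7201 (♂M-1), 7197 and 7579.8 (♂M-3), and 7565 and 7481 (ZM-1). Its log2 difference from ZM-1 was −0.03 in ♂M-3 (95% interval −0.19 to 0.14) and −0.05 in ♂M-1 (−0.21 to 0.12). Its arrays overlapped between ♂M-3 and both other lines. The lactate exporter Slc16a3 measured 1085 ± 147 (♂M-1), 1269 ± 46.4 (♂M-3) and 1048 ± 48.9 (ZM-1) (SD, n = 2), with an adjusted p of 0.0994 for ♂M-3 minus ZM-1 that was 0.0446 after median centring. Pdk1 and Pdk3 encode kinases that inhibit pyruvate dehydrogenase. Pdk1 measured 628 ± 31.1 (♂M-1), 619 ± 15.9 (♂M-3) and 562 ± 6.11 (ZM-1) and Pdk3 702 ± 27.6 (♂M-1), 791 ± 6.88 (♂M-3) and 735 ± 68.1 (ZM-1), and neither was called.

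Pfkfb3 and Pfkfb4 encode bifunctional enzymes that set the level of the sugar bisphosphate activating phosphofructokinase, and Pfkfb3 was higher in ♂M-3. It measured 204 and 206 (♂M-1), 251 and 283 (♂M-3), and 172 and 179 (ZM-1). The order of the lines was that of Ldhb, with no overlap between any of them. Pfkfb3 was 1.51-fold higher in ♂M-3 than in ZM-1 (log2 difference 0.60, SE 0.08, adjusted p = 0.00199), which held under all 16 alternatives. The ♂M-1 minus ♂M-3 difference was −0.38 (adjusted p = 0.0309), a call lost when any 1 of the 4 ♂M-1 or ♂M-3 arrays was left out (adjusted p between 0.0570 and 0.223). Between ♂M-1 and ZM-1 the difference of 0.22 had an adjusted p of 0.186. Pfkfb4 was dim, between 74.0 and 91.7 in the 6 arrays, and was not called.

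**Figure D2:**
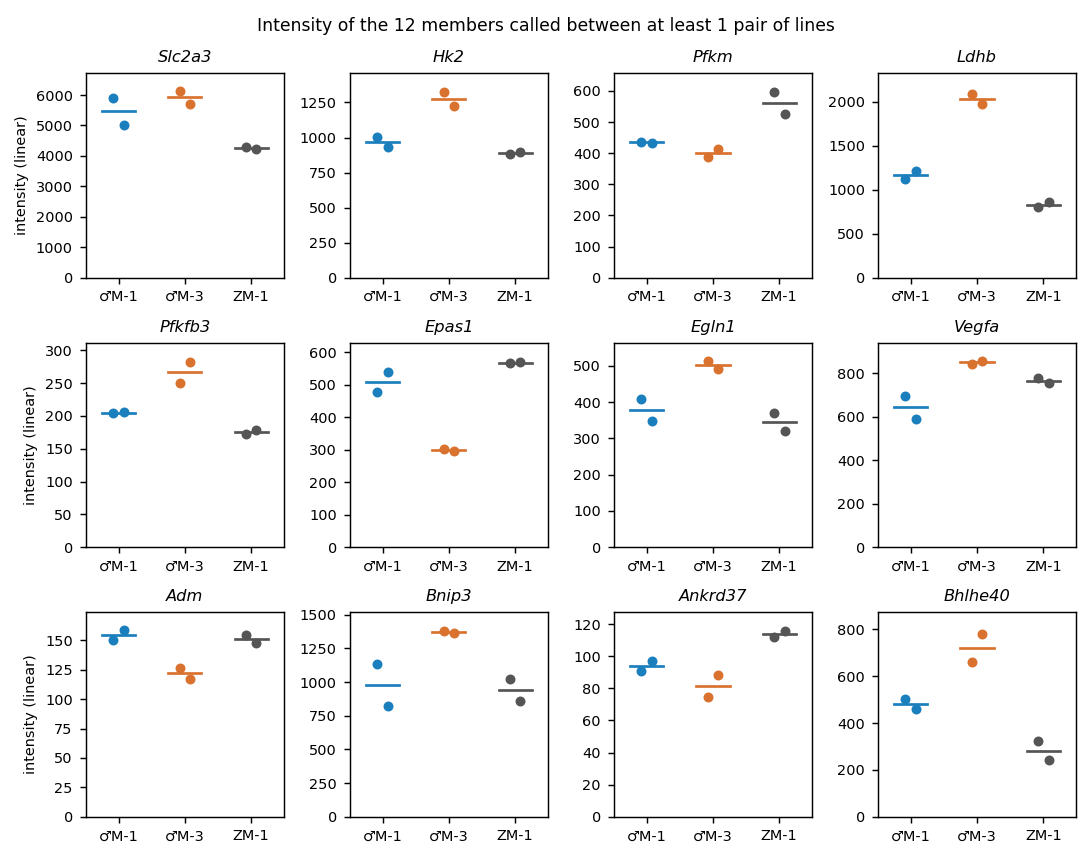
Intensity on a linear scale (y axis, from 0) of the 12 members called between at least 1 pair of lines, with a point for each of the 2 arrays of a line and a bar for their mean. Slc2a3, Hk2, Ldhb, Pfkfb3, Egln1, Bnip3 and Bhlhe40 were called higher in ♂M-3 than in ZM-1, and Pfkm, Epas1, Adm and Ankrd37 lower. The Epas1 arrays of ♂M-3, at 301 and 297, lie below those of both other lines.

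Among the oxygen-sensing genes, ♂M-3 had less Epas1 and more Egln1, and Hif1a was not called. Epas1 encodes the alpha subunit paralogous to HIF1A, best known from endothelial cells and erythropoietin control. It measured 477 and 538 (♂M-1), 301 and 297 (♂M-3), and 566 and 569 (ZM-1). Both ♂M-3 arrays were far below the other 4. Epas1 was 1.89-fold lower in ♂M-3 than in ZM-1 (log2 difference −0.92, SE 0.08, adjusted p = 1.77e-04) and 1.69-fold higher in ♂M-1 than in ♂M-3 (log2 difference 0.76, SE 0.08, adjusted p = 0.00111), and both calls held under all 16 alternatives. Between ♂M-1 and ZM-1 the difference was −0.16 (adjusted p = 0.315). Fibroblast markers were lowest in ♂M-3 too, at the sums given above.

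Egln1, the main HIF prolyl hydroxylase and itself a HIF target, measured 408 and 349 (♂M-1), 513 and 491 (♂M-3), and 369.6 and 322 (ZM-1). The ♂M-3 arrays were above the other 4, and those of ♂M-1 and ZM-1 overlapped. Egln1 was 1.45-fold higher in ♂M-3 than in ZM-1 (log2 difference 0.54, SE 0.10, adjusted p = 0.00847), lost when ♂M-3 replicate 1 was left out (adjusted p = 0.0590). The ♂M-1 minus ♂M-3 difference of −0.41 (adjusted p = 0.0474) was lost after quantile normalization (0.0565) and when any 1 of the 4 ♂M-1 or ♂M-3 arrays was left out (adjusted p between 0.0534 and 0.305). Hif1a itself measured 1342 ± 91.7 (♂M-1), 1238 ± 9.74 (♂M-3) and 1191 ± 3.43 (ZM-1) (SD, n = 2), with differences from ZM-1 of 0.06 in ♂M-3 (95% interval −0.12 to 0.23) and 0.17 in ♂M-1 (−0.01 to 0.35). Egln3, the hydroxylase isoform strongly induced by hypoxia, measured 909 ± 133 (♂M-1), 918 ± 1.55 (♂M-3) and 857 ± 114 (ZM-1) and was not called.

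The 12 hypoxia-responsive effectors split by direction in ♂M-3, with Bhlhe40 and Bnip3 higher than in ZM-1, Adm and Ankrd37 lower, and the other 8 not called. Bhlhe40, a transcriptional repressor induced by hypoxia and other stimuli, measured 501 and 458 (♂M-1), 660.1 and 781 (♂M-3), and 322 and 243 (ZM-1). As with Ldhb, ♂M-3 was highest, ♂M-1 between and ZM-1 lowest, without overlap. Bhlhe40 was 2.56-fold higher in ♂M-3 than in ZM-1 (log2 difference 1.36, SE 0.14, adjusted p = 3.20e-04), which held under all 16 alternatives. In ♂M-1 it was 1.71-fold higher than in ZM-1 (log2 difference 0.77, SE 0.14, adjusted p = 0.0159), lost when ♂M-1 replicate 1 was left out (adjusted p = 0.115), or when ♂M-1 replicate 2 was left out (adjusted p = 0.0912). The ♂M-1 minus ♂M-3 difference was −0.58 (adjusted p = 0.0370), lost when any 1 of the 4 ♂M-1 or ♂M-3 arrays was left out (adjusted p between 0.0691 and 0.251).

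Bnip3 and Bnip3l encode mitochondrial outer membrane proteins that recruit the autophagy machinery. Bnip3 measured 1137 and 819 (♂M-1), 1378 and 1366 (♂M-3), and 1023 and 859 (ZM-1). The ♂M-3 arrays were close together above the other 4, and the ♂M-1 arrays lay on either side of both ZM-1 arrays. The ♂M-3 minus ZM-1 difference of 0.55 passed (SE 0.14, adjusted p = 0.0334), but not after quantile normalization (0.0517), nor when ♂M-3 replicate 1 was left out (adjusted p = 0.126), or when ♂M-3 replicate 2 was left out (adjusted p = 0.126), or when ZM-1 replicate 2 was left out (adjusted p = 0.145). A second Bnip3 probe set measured 1000.4 and 818 (♂M-1), 1264 and 1228 (♂M-3), and 926 and 849 (ZM-1), in the same order. Tested with limma over all probe sets of the array, its ♂M-3 minus ZM-1 difference of 0.49 was not called (adjusted p = 0.0683). The ♂M-1 minus ♂M-3 difference of Bnip3 was −0.51 (adjusted p = 0.0791). It was under the threshold in 4 alternatives, among them without ♂M-1 replicate 1 (0.0217). Bnip3l measured 3717 ± 185 (♂M-1), 3965 ± 132 (♂M-3) and 3571 ± 3.05 (ZM-1) (SD, n = 2) and was not called. Its ♂M-3 minus ZM-1 log2 difference was 0.15, and that of a second, dimmer Bnip3l probe set was 0.002.

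Adm, the precursor of the vasodilator adrenomedullin, measured 150.3 and 159 (♂M-1), 127 and 117 (♂M-3), and 155 and 148 (ZM-1). The ♂M-3 arrays were the lowest. Adm was 1.24-fold lower in ♂M-3 than in ZM-1 (log2 difference −0.31, SE 0.08, adjusted p = 0.0324), a call lost after median centring (0.0603) and when any 1 of the 4 ♂M-3 or ZM-1 arrays was left out (adjusted p between 0.0635 and 0.199). In ♂M-1 it was 1.27-fold higher than in ♂M-3 (adjusted p = 0.0389), lost when any 1 of the 4 ♂M-1 or ♂M-3 arrays was left out (adjusted p between 0.0963 and 0.252). Ankrd37, an ankyrin repeat gene with HIF-dependent induction, measured 90.7 and 97.3 (♂M-1), 74.8 and 88.3 (♂M-3), and 112 and 116 (ZM-1). All ♂M arrays lay below both ZM-1 arrays. Ankrd37 was lower in ♂M-3 than in ZM-1 (log2 difference −0.48, SE 0.09, adjusted p = 0.00999), lost when ♂M-3 replicate 1 was left out (adjusted p = 0.0753), and its ♂M-1 minus ZM-1 difference of −0.28 had an adjusted p of 0.148.

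Vegfa, the angiogenic growth factor, was called between the ♂M lines alone. It measured 698 and 588 (♂M-1), 844 and 857 (♂M-3), and 777 and 755 (ZM-1). Both ♂M-1 arrays were the lowest and both ♂M-3 arrays the highest. Vegfa was 1.33-fold lower in ♂M-1 than in ♂M-3 (log2 difference −0.41, SE 0.09, adjusted p = 0.0336), lost when ♂M-1 replicate 2 was left out (adjusted p = 0.220), or when ♂M-3 replicate 1 was left out (adjusted p = 0.144), or when ♂M-3 replicate 2 was left out (adjusted p = 0.172). Against ZM-1 the differences were −0.26 in ♂M-1 (adjusted p = 0.166) and 0.15 in ♂M-3 (adjusted p = 0.318).

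The remaining effectors were called between no pair of lines. Ero1a, an oxidase that forms disulfide bonds in the endoplasmic reticulum, measured 1944 and 1552 (♂M-1), 2109 and 1899 (♂M-3), and 2184 and 2276 (ZM-1). ZM-1 was the highest line for Ero1a, with log2 differences of −0.36 in ♂M-1 (adjusted p = 0.113) and −0.16 in ♂M-3 (adjusted p = 0.397). P4ha1 and P4ha2, subunits of the enzyme that hydroxylates collagen prolines, were also highest in ZM-1 by their means. P4ha1 measured 651 ± 104 (♂M-1), 676 ± 16.7 (♂M-3) and 750.4 ± 26.5 (ZM-1) (SD, n = 2) and P4ha2 186 ± 17.2 (♂M-1), 178 ± 3.17 (♂M-3) and 198 ± 1.01 (ZM-1). The stress-responsive gene Ndrg1 and the histone demethylase Kdm3a differed from ZM-1 by 0.05 and 0.07 in ♂M-3. Car9, a membrane carbonic anhydrase commonly used as a hypoxia marker, was dim, at 40.8 and 39.2 (♂M-1), 44.4 and 46.1 (♂M-3), and 66.3 and 43.4 (ZM-1). One ZM-1 array was apart from the other 5 for Car9, the brighter of that line. With the dimmer one, ZM-1 replicate 2, left out, Car9 was called lower in ♂M-1 (adjusted p = 0.00568) and in ♂M-3 (0.00832), and with the brighter one left out the adjusted p was 0.553 in ♂M-1 and 0.732 in ♂M-3.

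The repeats of ♂M-1 differed from each other in these genes. Repeat 1 was higher than repeat 2 in 29 of the 37 members (78.4%), with a median log2 difference of 0.11, where 46.6% of all genes and 54.4% of the genes above the median level were higher in repeat 1. The glycolysis members had a median difference of 0.10 and the hypoxia members 0.16. Eno2, Bnip3, Ero1a and Pfkp had gaps among the wider ones, as their values above show. In ♂M-3, 20 of 37 members were higher in repeat 1, with a median of 0.02. In ZM-1 it was 26 of 37 with a median of 0.04, where 66.8% of the genes above the median level were higher in repeat 1 with a median of 0.05. Replicate numbers are names and carry no order, and the labels used here do not state the growth state of each culture.

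**Figure D3:**
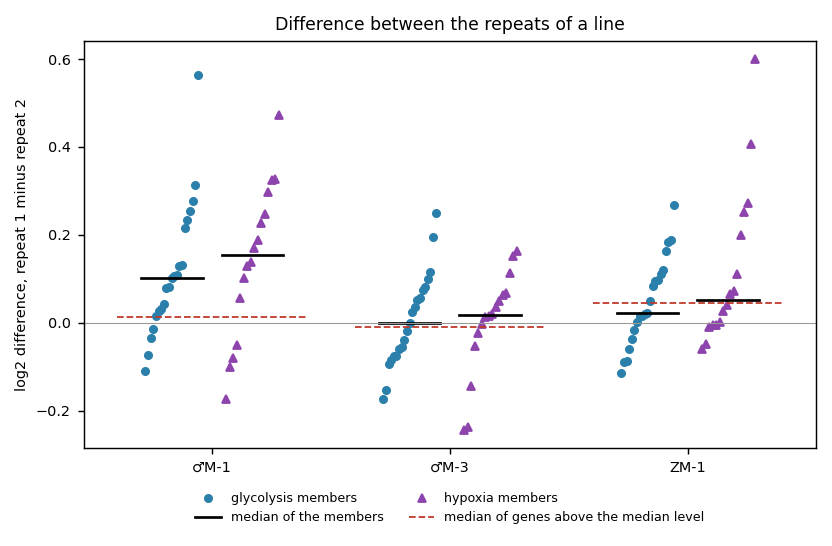
Log2 difference between repeat 1 and repeat 2 of each line (y axis) for the 21 glycolysis members (circles) and the 16 hypoxia members (triangles), in rising order within a line, with black bars at the members' medians and dashed lines at the median of all genes above the median level. In ♂M-1 the medians of 0.10 and 0.16 lie above the dashed line at 0.01, and in ♂M-3 and ZM-1 they lie within 0.06 of 0.

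Other genes of the pathways were taken from lists of the same kind. Of 16 other glycolytic isoforms, 1 was higher and 1 lower in ♂M-3 than in ZM-1, which is 12.5% beside 15.9% of all genes. Pfkfb2, a further bifunctional regulator of phosphofructokinase, measured 155 ± 23.3 (♂M-1), 191 ± 3.43 (♂M-3) and 125 ± 2.06 (ZM-1) (SD, n = 2; ♂M-3 minus ZM-1 0.61, adjusted p = 0.00487), a call that held whichever array was left out. The muscle mutase Pgam2 measured 58.2 ± 7.50 (♂M-1), 57.1 ± 4.58 (♂M-3) and 80.2 ± 8.59 (ZM-1) (adjusted p = 0.0214 for ♂M-3 minus ZM-1), lost without either ♂M-3 array or ZM-1 replicate 1 (adjusted p between 0.0515 and 0.138). In ♂M-1 none was called against ZM-1, and the muscle enolase Eno3 was lower than in ♂M-3 (log2 difference −0.50, adjusted p = 0.0105), a call lost without either ♂M-1 array or ♂M-3 replicate 2 (between 0.0647 and 0.0956).

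Of 12 genes of pyruvate transport and dehydrogenase, ♂M-3 had 1 higher and 1 lower than ZM-1 (16.7%, near the 15.9% of all genes), and ♂M-1 had 1 lower (8.33%, beside 4.42%). The lower gene was Pdk4, a starvation-induced pyruvate dehydrogenase kinase, at 117 ± 7.06 (♂M-1), 133 ± 4.45 (♂M-3) and 163 ± 8.67 (ZM-1) (SD, n = 2). Its differences from ZM-1 were −0.48 in ♂M-1 (adjusted p = 0.0152), lost when ♂M-1 replicate 2 was left out (adjusted p = 0.124), or when ZM-1 replicate 1 was left out (adjusted p = 0.0589), and −0.29 in ♂M-3 (adjusted p = 0.0422), lost without any of the 6 arrays (between 0.0539 and 0.199). The phosphatase Pdp2 was higher in ♂M-3 (log2 difference 0.34, adjusted p = 0.0402), lost without any array except ♂M-3 replicate 1 (between 0.0552 and 0.249). In the pentose phosphate pathway 1 of 6 genes (16.7%, also near that share) was called, Pgls, a lactonase, higher in ♂M-3 than in ZM-1 (log2 difference 0.28, adjusted p = 0.0307), lost without any ♂M-3 or ZM-1 array (between 0.0685 and 0.142).

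Of 11 other HIF pathway components, among them Arnt and Vhl, only Hif3a was called, which is 9.09% beside 15.9% of all genes between ♂M-3 and ZM-1 and 6.54% between the ♂M lines. Hif3a, an alpha subunit with inhibitory splice forms, measured 107 ± 17.7 (♂M-1), 144 ± 0.212 (♂M-3) and 102 ± 1.05 (ZM-1) (SD, n = 2). It was higher in ♂M-3 than in ZM-1 (0.50, adjusted p = 0.0145) and lower in ♂M-1 than in ♂M-3 (−0.44, adjusted p = 0.0424). The first call was lost without either ♂M-3 array or ZM-1 replicate 2 (between 0.0514 and 0.0763) and the second without either ♂M-3 array or ♂M-1 replicate 2 (between 0.179 and 0.238).

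The longer list of 33 other hypoxia-responsive genes had 14 called in ♂M-3 against ZM-1, 9 higher and 5 lower. That is 42.4% beside the 15.9% of all genes and 22.3% of those above the median level. The list's median difference was 0.11, against 0.06 for genes above that level. How many of the 33 lay above it is not given here. This list too was chosen with earlier results of these data known. Stc2, a secreted glycoprotein, measured 189 ± 14.5 (♂M-1), 301 ± 10.9 (♂M-3) and 178 ± 20.3 (ZM-1) (SD, n = 2) and was higher in ♂M-3 (0.76, adjusted p = 0.00137). Bhlhe41, the paralog of Bhlhe40, measured 62.8 ± 2.47 (♂M-1), 74.8 ± 6.80 (♂M-3) and 47.1 ± 5.11 (ZM-1) and was higher too (0.66, adjusted p = 0.00292). On the lower side, the placental growth factor Pgf measured 113 ± 30.9 (♂M-1), 72.8 ± 4.21 (♂M-3) and 149 ± 22.6 (ZM-1) (−1.01, adjusted p = 0.00473) and the collagen lysyl hydroxylase Plod1 640.4 ± 12.9 (♂M-1), 566 ± 2.40 (♂M-3) and 920.0 ± 16.2 (ZM-1) (−0.70, adjusted p = 4.01e-04). These 4 ♂M-3 calls held whichever array was left out.

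In ♂M-1, 2 of the 33 were called against ZM-1, Edn1 higher and Plod1 lower, which is 6.06% beside 4.42% of all genes. Both were called in the same direction in ♂M-3, Edn1 with a log2 difference of 0.48 from ZM-1 (adjusted p = 0.00488). The list's median in ♂M-1 against ZM-1 was −0.02. Edn1, the vasoconstrictor endothelin precursor, measured 107 ± 1.52 (♂M-1), 95.8 ± 4.17 (♂M-3) and 68.7 ± 4.19 (ZM-1) (SD, n = 2; ♂M-1 minus ZM-1 0.64, adjusted p = 0.00319) and held whichever array was left out. The Plod1 difference of ♂M-1 from ZM-1 was −0.52 (adjusted p = 0.00497), lost when ♂M-1 replicate 2 was left out (adjusted p = 0.0583). Between the ♂M lines 6 were called, 2 higher and 4 lower in ♂M-1. That is 18.2%, beside 6.54% of all genes and 9.68% of those above the median level. The list's median was −0.10. Lox, a collagen cross-linking oxidase that fibroblasts also express, measured 1491 ± 114 (♂M-1), 882 ± 27.1 (♂M-3) and 1221 ± 80.5 (ZM-1) and was higher in ♂M-1 than in ♂M-3 (0.76, adjusted p = 0.00151), which held whichever array was left out. The Stc2 difference of ♂M-1 from ♂M-3 was −0.67 (adjusted p = 0.00517), lost when ♂M-1 replicate 2 was left out (adjusted p = 0.0683), or when ♂M-3 replicate 2 was left out (adjusted p = 0.0505). The VEGF receptor Flt1 was higher (log2 difference 0.44, adjusted p = 0.0206), lost when any 1 of the 4 ♂M-1 or ♂M-3 arrays was left out (adjusted p between 0.0635 and 0.167). Ppp1r3c, a glycogen-targeting phosphatase subunit, was near the lower quartile of the arrays, at 20.5 ± 0.758 (♂M-1), 31.1 ± 1.51 (♂M-3) and 23.2 ± 1.65 (ZM-1) (adjusted p = 0.00469 for ♂M-1 minus ♂M-3), lost when ♂M-1 replicate 2 was left out (adjusted p = 0.0601), or when ♂M-3 replicate 2 was left out (adjusted p = 0.0509).

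Of 9 regulators of glucose metabolism, 1 was higher and 1 lower in ♂M-3 than in ZM-1, which is 22.2% beside 15.9% of all genes. Myc, a transcription factor that activates many glycolytic genes, measured 305 ± 25.9 (♂M-1), 209 ± 5.66 (♂M-3) and 313 ± 35.9 (ZM-1) (SD, n = 2). It was 1.49-fold lower in ♂M-3 than in ZM-1 (log2 difference −0.57, SE 0.10, adjusted p = 0.00578), which held whichever array was left out. In ♂M-1 it was 1.45-fold higher than in ♂M-3 (adjusted p = 0.0144), lost without either ♂M-3 array or ♂M-1 replicate 2 (between 0.0724 and 0.139). Mlxipl, a glucose-responsive transcription factor, measured 102 ± 0.672 (♂M-1), 125 ± 9.73 (♂M-3) and 84.6 ± 8.22 (ZM-1) and was higher in ♂M-3 than in ZM-1 (0.55, adjusted p = 0.00487), which also held. The arrestin-domain gene Arrdc4, a target of that factor, was lower in ♂M-1 than in ♂M-3 (log2 difference −0.43, adjusted p = 0.0303), lost when any 1 of the 4 ♂M-1 or ♂M-3 arrays was left out (adjusted p between 0.118 and 0.184). Lin28b, an RNA-binding protein that promotes glycolysis, was higher in ♂M-1, relative to ZM-1 (log2 difference 0.39, adjusted p = 0.0466), lost without any 1 of the 6 arrays (between 0.0533 and 0.249). Among 7 reference genes 1 (14.3%) was called, Gusb, a lysosomal glucuronidase, higher in ♂M-3 than in ZM-1 (log2 difference 0.27, adjusted p = 0.0457), lost when any 1 of the 4 ♂M-3 or ZM-1 arrays was left out (adjusted p between 0.113 and 0.177). All 7 reference genes had positive differences in ♂M-1 against ZM-1, with a median of 0.09, and 6 of 7 in ♂M-3, with a median of 0.14. Against ZM-1 the remaining lists, cell type markers aside, had medians between −0.02 and 0.11 in ♂M-3, and between −0.03 and 0.16 in ♂M-1. The marker lists ran from −0.54 (fibroblasts) to 0.22 (pluripotent cells) in ♂M-3. In ♂M-1 they ran from −0.44 (blood and immune cells) to 0.04 (pluripotent cells).

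**Figure D4:**
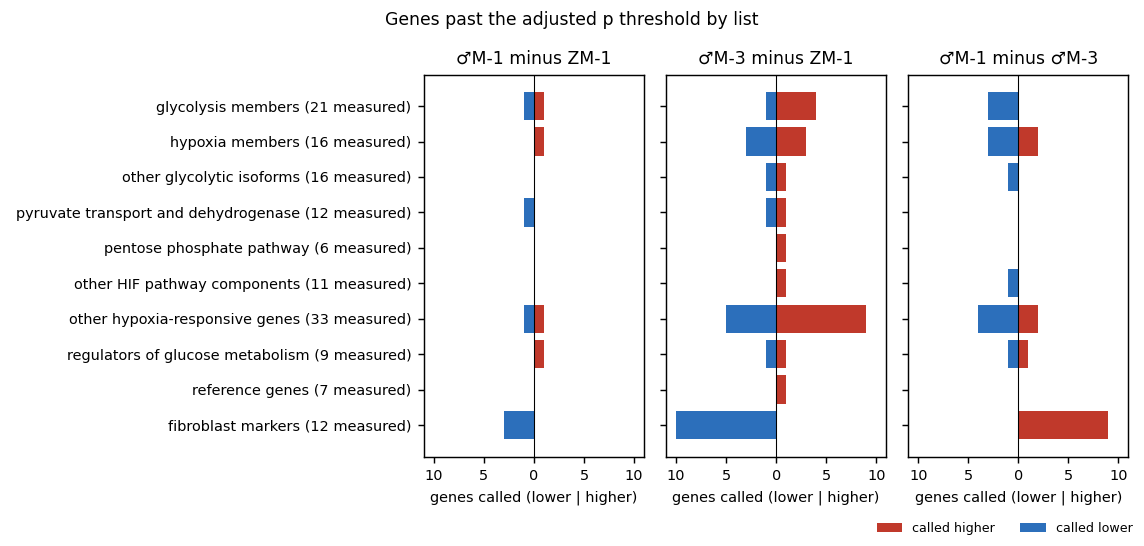
Number of genes with an adjusted p under 0.05 in each list (x axis, lower to the left of 0 and higher to the right), for ♂M-1 minus ZM-1, ♂M-3 minus ZM-1 and ♂M-1 minus ♂M-3, with the number measured beside each list. In ♂M-3 minus ZM-1, the 16 hypoxia members had 3 higher and 3 lower, the 21 glycolysis members 4 higher and 1 lower, and the 12 fibroblast markers 10 lower.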

How the data were processed

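The authors deposited 1 table of intensity values on a linear scale, 35556 probe sets by 6 arrays. GCOS version 1.4 is named in the submitters' processing notes. How background was corrected and how values were summarised and normalized is not given in the sources used here. Detection calls were not used. Values were analysed as log2(intensity + 1) without further normalization. Of the probe sets, 21789 carried 1 symbol in the platform annotation, 1621 several and 12146 were not listed. The single-symbol probe set with the highest mean log2 value was kept per gene (19938 genes). Symbols without a match were looked up through RefSeq identifiers (GRCm38.p6).

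With limma 3.58.1 (R 4.3.3), 1 mean was estimated for each line from the 6 arrays together (3 residual and 6.03 prior degrees of freedom), two-sided, with Benjamini-Hochberg adjustment over all genes and a threshold of 0.05. The script was tested on simulated data. P-values measure the spread between repeats only, and the 6 arrays limit the precision. All members are named, with up to 4 called genes per other list and comparison, the largest differences first, except for cell type markers. Those were counted, and only some of them are named. Members and lists were chosen with earlier results of these data known. The labels do not say whether a replicate number marks a shared batch, and the main fit used no replicate block. Over all genes, correlations of same-numbered deviations between lines were between −0.10 and 0.07. A shared effect on a smaller set of genes, such as the members, was not tested. Alternatives covered normalization, pseudocount, dim genes, probe sets, variance model, arrays fitted, a replicate block and each array left out.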

Additional observations from a re-analysis of the deposited data

How the results depend on the processing

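No call of a member changed direction under any of the 16 alternatives. Of the calls, 5 of 11 between ♂M-3 and ZM-1, 0 of 3 between ♂M-1 and ZM-1 and 2 of 8 between ♂M-1 and ♂M-3 held under all of them, and 16 differences of members not called before were called under at least 1. With all probe sets in a single fit the members called were 0 (♂M-1 to ZM-1), 6 (♂M-3 to ZM-1) and 2 (♂M-1 to ♂M-3), and the features called 275, 2027 and 442, against 882, 3162 and 1303 genes. An intensity trend with a robust prior gave 8 and 13 members and 1694 and 1997 genes in the first and last comparison, and a fit of the genes above the 50th percentile called 7 members (20%) and 1293 genes (13%) in the first. The cause of these shifts was not tested. Leaving out single arrays gave 1 to 4, 5 to 11 and 2 to 8 members, and 235 to 633, 1301 to 2749 and 357 to 1495 genes. After median centring, 62.0% of the genes called between ♂M-1 and ZM-1 were higher, against 42.9% before, and 70.8% against 54.6% between ♂M-3 and ZM-1. With the replicate number as a block, 2, 11 and 7 members and 686, 2768 and 1070.0 genes were called. The block moved no count of members by over 1.5 times, and it ended the calls of Pfkm between ♂M-1 and ZM-1 and of Adm and Bhlhe40 between ♂M-1 and ♂M-3, and added that of Bnip3 between ♂M-1 and ♂M-3 (adjusted p = 0.0399). Arrays give no depth, and with detection calls not used, dim members such as Car9 and Pfkfb4 have no stated floor.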
